A study of Mus musculus with 32 samples.

Results

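Schwann cells are the glia that wrap the nerve fibres running through a muscle, and those around large motor and sensory axons lay down the compact myelin that speeds conduction. Myelination is driven by the transcription factors SOX10 and EGR2, and neuregulin from the axon acts on it through the ERBB2 and ERBB3 receptors. After nerve damage Schwann cells lower their myelin genes, take on a repair state in which NGFR and GAP43 are raised, and remyelinate once axons return. The 8 genes described here were chosen by name from a deposited table of 54532 genes. The myelin sheath is represented by Pmp22, Mbp and Prx, Schwann cell identity by Sox10, S100b and Cdh19, and the immature or injury-associated state by Ngfr and Gap43. All 8 were found, and all 8 were among the 17121 genes that passed a filter on low counts and were tested.

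RNA from tibialis anterior muscle, the front muscle of the shin, was sequenced in C57BL/6J mice. There were 8 groups of 4 libraries. Young mice given vehicle and old mice given vehicle were each sampled without injury, and at 7 and 35 days after a BaCl (barium chloride) injury, which kills muscle fibres and is followed by their regrowth. Old mice given BI01, a compound the series calls senolytic and whose title concerns p53 and MDM2 binding, were sampled at 7 and 35 days after injury. The labels give young and old but no age in weeks, and no nerve was dissected, so a Schwann cell gene is read here in whole muscle. In bulk tissue, fewer Schwann cells and less RNA per Schwann cell cannot be told apart. Library totals were 14129350 to 30439358 counts. The columns of uninjured muscle carry the letters PBS where those of injured muscle carry Ba, while their titles say only that there was no injury. They also carry the name of the 35-day set. A difference between day 7 and uninjured muscle and a difference between collection sets therefore cannot be told apart. The same holds for every difference between day 7 and day 35, whose columns carry the names of different sets. Whether the 4 libraries of a group stand for 4 animals is not stated, and p-values measure the spread between these libraries, which may be technical. Libraries are named by group and the number in their column name. The tissue was muscle by its markers: 8 fibre genes summed to 197392 to 253685 CPM (TMM-scaled counts in every 1e6) in young uninjured libraries.

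The genes were given in mm10. Pmp22 (ENSMUSG00000018217, chromosome 11, 63128982 to 63159547, plus strand) encodes a membrane protein of compact myelin. The gene is also transcribed outside Schwann cells, fibroblasts included. Mbp (ENSMUSG00000041607) encodes the basic proteins that hold the cytoplasmic faces of myelin together, and its locus also makes golli transcripts in other cells. Prx (ENSMUSG00000053198, chromosome 7, 27499324 to 27520214, plus strand) encodes periaxin, which ties the Schwann cell membrane to the surrounding basal lamina. Sox10 (ENSMUSG00000033006, chromosome 15, 79154908 to 79165240, minus strand) encodes the lineage transcription factor. S100b (ENSMUSG00000033208, chromosome 10, 76253853 to 76261159, plus strand) encodes a calcium-binding protein used as a Schwann cell stain, and Cdh19 (ENSMUSG00000047216, chromosome 1, 110888326 to 110977584, minus strand) a cadherin of the Schwann cell lineage. Ngfr (ENSMUSG00000000120, chromosome 11, 95568818 to 95587735, minus strand) encodes the low-affinity neurotrophin receptor p75, and Gap43 (ENSMUSG00000047261, chromosome 16, 42248442 to 42340651, minus strand) a growth-cone protein. The counts were made per gene, so they do not say which exon, transcript or start was used.

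RefSeq promoters on GRCm38.p6, the assembly called mm10, were matched for 4 of the 8 genes: Pmp22 with 4 starts, Prx, S100b and Ngfr. The 250 bases before a start are printed for the outermost Pmp22 start, for Prx and for S100b, because these 3 genes include the member with the largest counts, a further myelin gene and a member called at day 7. They lie at chr11:63128732-63128981, chr7:27499074-27499323 and chr10:76253586-76253835, all on the plus strand. Both strands were searched for the SOX cores ACAAAG and ACAATG, the EGR core GTGGGCG and the TEAD core GGAATG. Capitals mark the only matches, 2 TEAD cores on the opposite strand, written here as CATTCC.
Pmp22: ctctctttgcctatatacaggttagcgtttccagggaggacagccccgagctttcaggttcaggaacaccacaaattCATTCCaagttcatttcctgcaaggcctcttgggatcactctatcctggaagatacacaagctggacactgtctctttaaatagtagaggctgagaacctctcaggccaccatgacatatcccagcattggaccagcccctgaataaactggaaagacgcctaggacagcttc
Prx: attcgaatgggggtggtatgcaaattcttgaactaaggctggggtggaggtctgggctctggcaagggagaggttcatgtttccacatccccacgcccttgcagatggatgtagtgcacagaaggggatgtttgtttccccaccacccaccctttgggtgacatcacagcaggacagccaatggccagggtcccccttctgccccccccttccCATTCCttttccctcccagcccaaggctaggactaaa
S100b: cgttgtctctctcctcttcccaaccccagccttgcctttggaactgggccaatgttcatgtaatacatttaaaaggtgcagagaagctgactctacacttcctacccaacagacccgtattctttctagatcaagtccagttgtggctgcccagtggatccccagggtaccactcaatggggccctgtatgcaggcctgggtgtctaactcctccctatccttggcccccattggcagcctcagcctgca
The match in the Pmp22 window began 173 bases before the start, and that in the Prx window began 37 bases before it. Across 32851 RefSeq promoter windows of the same length the TEAD core was present in 12.6%, ACAAAG in 16.5%, ACAATG in 10.7% and GTGGGCG in 7.02%. A match to 6 or 7 letters is a description of these windows and not a binding site. The other Pmp22 windows, the S100b window and the Ngfr window held none of the 4 motifs. Base composition ranged from 48.8% G and C before the outermost Pmp22 start to 73.6% before the innermost one.

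The members differed widely in depth, which sets how precisely each can be read. Over the 32 libraries Pmp22 had 16211 counts, Mbp 4155, Ngfr 2246 and Prx 1662, and each of these 4 had counts in every library. Cdh19 had 355 counts with 3 libraries at 0, S100b 231 with 8 at 0, Sox10 187 with 5 at 0 and Gap43 104 with 11 at 0. Scaled to gene length, young uninjured muscle held a level of 3.55 ± 1.59 CPM per kilobase (SD, n = 4) of Pmp22, 1.72 ± 0.719 of Ngfr, 0.911 ± 0.265 of Mbp and 0.402 ± 0.118 of Prx. In old uninjured muscle the length-scaled levels were 4.32 ± 0.725 for Pmp22, 1.22 ± 0.166 for Mbp, 0.856 ± 0.237 for Ngfr and 0.370 ± 0.0803 for Prx. Pmp22 was thus first at both ages by its mean length-scaled level. Ngfr came next and then Mbp in young muscle, and the order of these means was the other way round in old muscle.

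**Figure D1:**
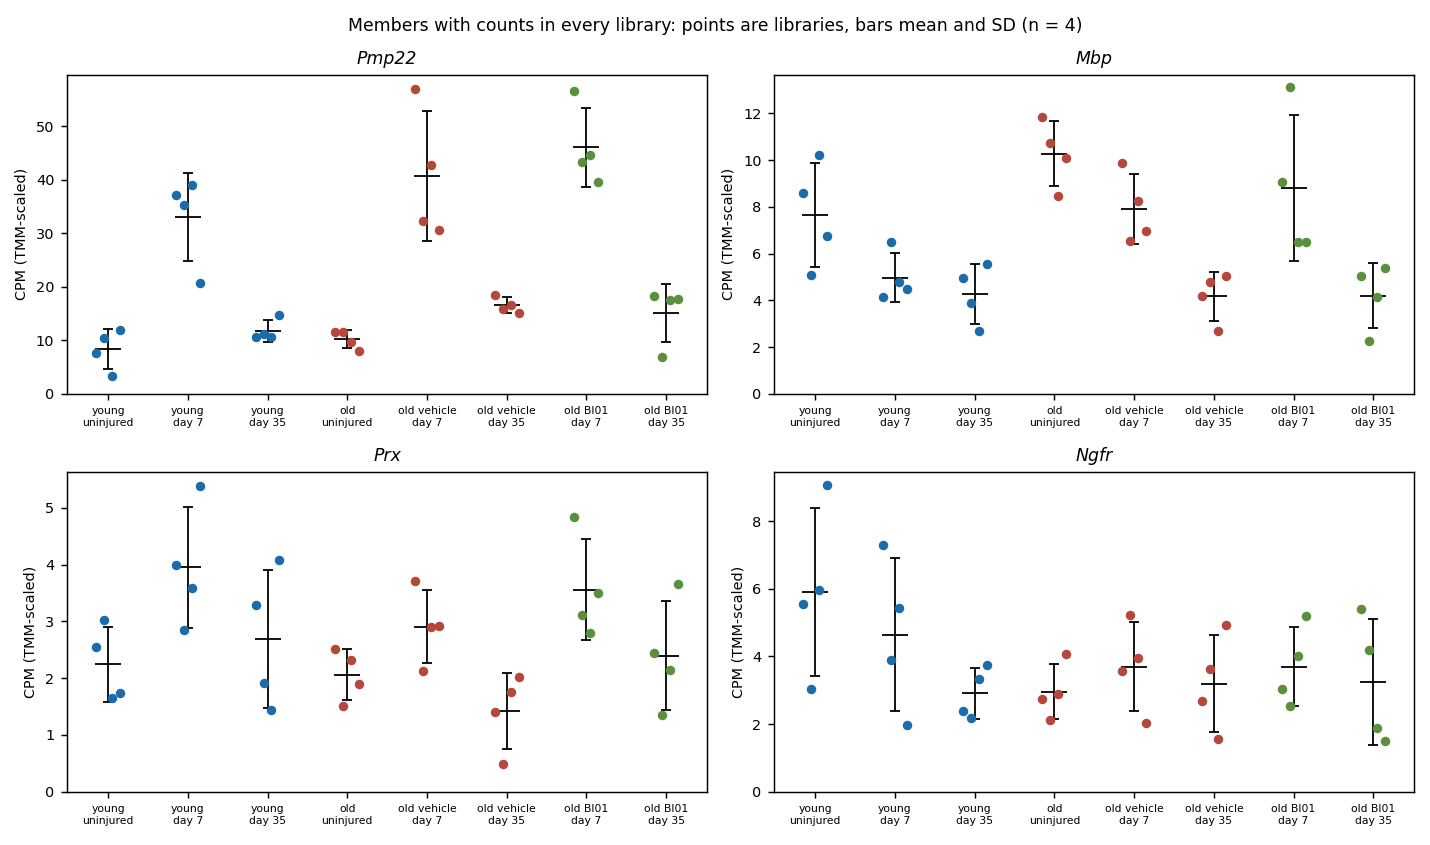
Expression in CPM (y axis, linear, from 0) of Pmp22, Mbp, Prx and Ngfr in the 8 groups (x axis). Points are libraries and bars are mean and SD (n = 4). Pmp22 is highest in the 3 day 7 groups, and Mbp is lowest in the 3 day 35 groups by mean.

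Pmp22 rose at day 7 after injury at both ages and was lower again by day 35. The question put to the injured and uninjured groups is how a muscle that loses and rebuilds its fibres changes the RNA of its nerve-associated cells. Young uninjured libraries held 7.66, 10.4, 3.40 and 11.96 CPM of Pmp22, and young day 7 libraries 37.2, 35.3, 38.9 and 20.8 CPM. Old uninjured libraries held 11.5, 11.5, 9.60 and 8.002 CPM, and old vehicle day 7 libraries 57.0, 32.4, 42.8 and 30.5 CPM. Every day 7 library lay above every uninjured library of its age. The log2 fold change was 1.99 in young muscle (SE 0.29, adjusted p = 6.59e-07 by edgeR's quasi-likelihood test with Benjamini-Hochberg adjustment), which is 3.96-fold. In old muscle it was 2.00 (SE 0.28, adjusted p = 3.59e-07), or 4.00-fold. Both calls held in all 15 alternative analyses. The difference between the 2 ages in this response was 0.02 on the log2 scale, with a 95% interval of -0.79 to 0.82 (adjusted p = 0.994).

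By day 35 the Pmp22 libraries read 10.5, 11.2, 10.5 and 14.8 CPM in young muscle and 18.5, 15.8, 16.6 and 15.1 CPM in old vehicle muscle. From day 7 to day 35 Pmp22 fell by 1.49 on the log2 scale in young muscle (SE 0.28, adjusted p = 4.06e-05) and by 1.30 in old vehicle muscle (SE 0.27, adjusted p = 0.000165). Against uninjured muscle the day 35 values were 0.49 in young (adjusted p = 0.249) and 0.70 in old (SE 0.28, 95% interval 0.13 to 1.27, adjusted p = 0.161), neither called. The 4 old day 35 libraries nevertheless lay above the 4 old uninjured ones. A fit restricted to those 8 libraries called the old difference (0.69, adjusted p = 0.00270). Old day 35 libraries also lay above the young day 35 ones, with a log2 difference of 0.49 that was not called (adjusted p = 0.419) and was called in a fit of those groups alone (0.48, adjusted p = 0.0425). By group mean, Pmp22 ran from 8.36 ± 3.75 in young uninjured muscle through 10.2 ± 1.71 in old uninjured, 11.8 ± 2.05 in young day 35, 15.1 ± 5.47 in BI01 day 35 and 16.5 ± 1.48 in old vehicle day 35 to 33.0 ± 8.31, 40.7 ± 12.2 and 46.1 ± 7.38 CPM in young, old vehicle and BI01 day 7. In this order the only neighbours whose libraries did not overlap were old vehicle day 35 and young day 7.

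Mbp, the second myelin gene by counts, did not follow Pmp22. Its young uninjured libraries held 8.58, 5.07, 10.2 and 6.75 CPM, its young day 7 libraries 4.15, 6.49, 4.76 and 4.46 CPM and its young day 35 libraries 4.97, 3.88, 2.67 and 5.56 CPM. Old vehicle libraries held 11.8, 10.7, 8.48 and 10.1 CPM uninjured, 9.87, 6.54, 8.25 and 6.96 CPM at day 7, and 4.19, 4.79, 2.67 and 5.02 CPM at day 35. In old muscle every day 35 library lay below every uninjured and every day 7 library. Mbp fell by 1.30 on the log2 scale from uninjured to day 35 in old muscle (SE 0.28, 95% interval -1.87 to -0.73, adjusted p = 0.00409), 2.46-fold, and the call held in all 16 alternatives. From day 7 to day 35 it fell by 0.92 in old vehicle muscle (SE 0.28, adjusted p = 0.00538) and the call held in all 15 alternatives.

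In young muscle Mbp fell by 0.84 on the log2 scale from uninjured to day 35 (SE 0.28, adjusted p = 0.0399), but the groups overlapped and 6 of 16 alternatives kept the call. It was lost without young day 35 libraries 1 (adjusted p = 0.0539), 2 (0.0879) or 3 (0.131), and without young uninjured libraries 1 (0.105) or 3 (0.174). The range over all alternatives was 0.0124 to 0.174. The old and young day 35 responses differed by -0.46 (95% interval -1.27 to 0.35, adjusted p = 0.733), so a larger fall in old muscle was not shown. At day 7 the differences from uninjured muscle were -0.62 in young (adjusted p = 0.0524) and -0.38 in old muscle (adjusted p = 0.222). Neither was called. The young one was called by DESeq2 (adjusted p = 0.0494), without young day 7 library 5 (-0.78, 0.0282) and without young uninjured library 2 (-0.78, 0.0225). With library size as the only scaling both turned positive, at 0.27 and 0.65. By that scaling the median of all genes moved from 0.17 to 1.05 in young and from 0.14 to 1.15 in old muscle.

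Prx, the remaining myelin gene, had 1.66 to 3.03 CPM in young uninjured and 2.84 to 5.38 CPM in young day 7 libraries. The difference of 0.81 on the log2 scale was not called (SE 0.37, adjusted p = 0.0558). It was called by DESeq2 (0.0362), with library size alone (1.66, 0.000339) and without young day 7 library 5 (0.0396) or young uninjured library 2 (0.0377). In old vehicle muscle Prx stood at 2.52, 1.51, 2.32 and 1.90 CPM uninjured, 3.71, 2.12, 2.89 and 2.92 CPM at day 7, and 1.40, 0.491, 1.76 and 2.02 CPM at day 35. Old day 7 and day 35 libraries did not overlap, and Prx fell by 1.05 between them (SE 0.37, adjusted p = 0.0164), 2.07-fold. That call was lost without old vehicle day 35 library 7 (-0.76, adjusted p = 0.0799), the lowest one, or without old vehicle day 7 library 7 (-0.91, adjusted p = 0.0527), the highest one, and in a fit of those 2 groups alone (0.0631). No other comparison of Prx was called except with library size alone. That scaling called Prx higher at old day 7 than uninjured (1.54, adjusted p = 0.0006). It also called Prx lower at day 35 than at day 7 in young (-1.17, 0.00753) and BI01 muscle (-1.44, 0.00124).

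The share of these calls has to be read against the whole table, where most genes tested differed between day 7 and uninjured muscle. Of all genes tested, 60.8% were called between day 7 and uninjured muscle in young mice and 64.2% in old mice given vehicle. In young muscle 1 of the 8 members was called higher (Pmp22) and 1 lower (Sox10), and in old muscle 2 were called higher (Pmp22 and S100b) and 0 lower. By edgeR these shares were below the background, while the number of members called depended on the analysis. DESeq2 called 5 of the 8 members at young day 7 and 2 at old day 7, beside 10639 and 11208 of all 17121 genes. Limma voom called 1 and 3 members, beside 9832 and 11143 genes. Of these shares only that of DESeq2 at young day 7 came near its own background. With library size alone edgeR called 5 and 5 members. At day 35 against uninjured muscle 15.7% of genes were called in young and 5.64% in old mice, with 1 member called lower in each, Mbp both times. Between day 35 and day 7 the background was 55.3% in young, 58.9% in old vehicle and 55.6% in old BI01 muscle, and 3 members were called in each. The median log2 fold change of the 8 members at day 7 was 1.07 in young muscle, beside 0.17 over all genes tested, and 0.42 in old muscle, beside 0.14. These comparisons share groups with each other and are not independent.

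**Figure D2:**
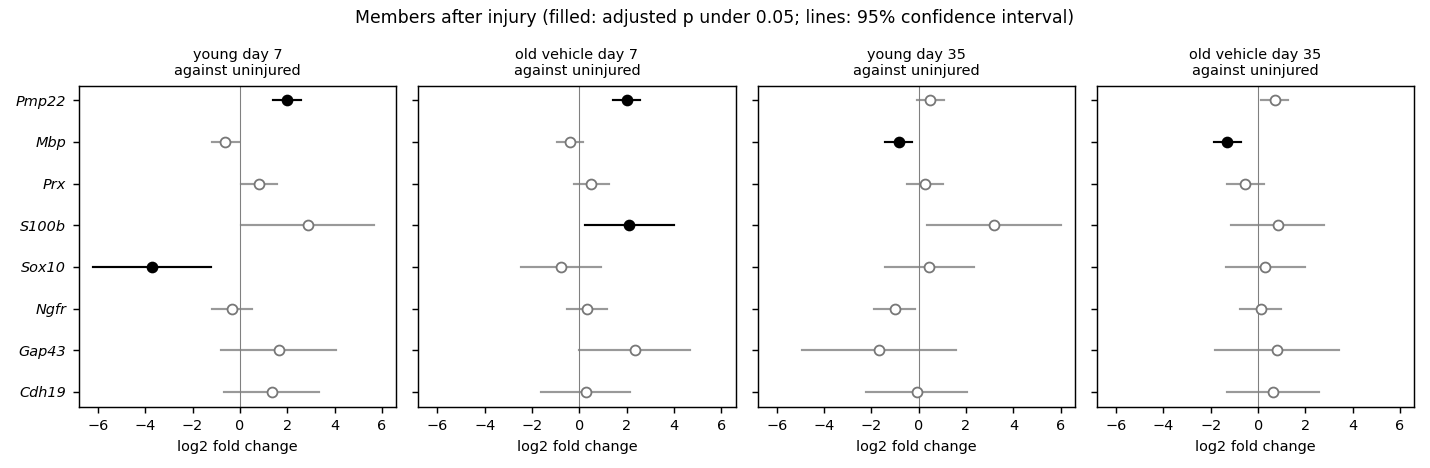
Log2 fold change (x axis) of each member (y axis) against uninjured muscle of the same age at day 7 and day 35. Points are model estimates, lines are 95% confidence intervals, and filled points have an adjusted p under 0.05. Pmp22 lies near 2 at day 7 at both ages with a narrow interval, and the intervals of S100b, Sox10, Gap43 and Cdh19 are wide.

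Since library scaling enters every value above, Pmp22 was also set against Mbp within each library, where scaling cancels. The ratio of Pmp22 to Mbp counts was 0.892, 2.05, 0.333 and 1.77 in young uninjured libraries, 8.96, 5.44, 8.18 and 4.66 at day 7 and 2.12, 2.89, 3.95 and 2.66 at day 35. In old vehicle libraries it was 0.974, 1.08, 1.13 and 0.794 uninjured, 5.78, 4.95, 5.19 and 4.39 at day 7 and 4.42, 3.29, 6.21 and 3.02 at day 35. All injured libraries of both days lay above all uninjured libraries of the same age. The ratio was 6.44-fold higher at day 7 and 2.78-fold higher at day 35 in young muscle, and 5.13-fold and 4.12-fold higher in old muscle. Each of these 4 differences had an exact two-sided permutation p of 0.0286, the smallest that 4 libraries against 4 can give, and 0.098 when adjusted over the 24 comparisons of ratios made. The ratio was added after the data were seen and uses the counts described above, so these p-values are not separate support. It describes an unequal change of the 2 myelin genes in these libraries and not that either stayed level. Ratios of Mbp to Prx counts overlapped in 10 of the 12 comparisons.

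**Figure D3:**
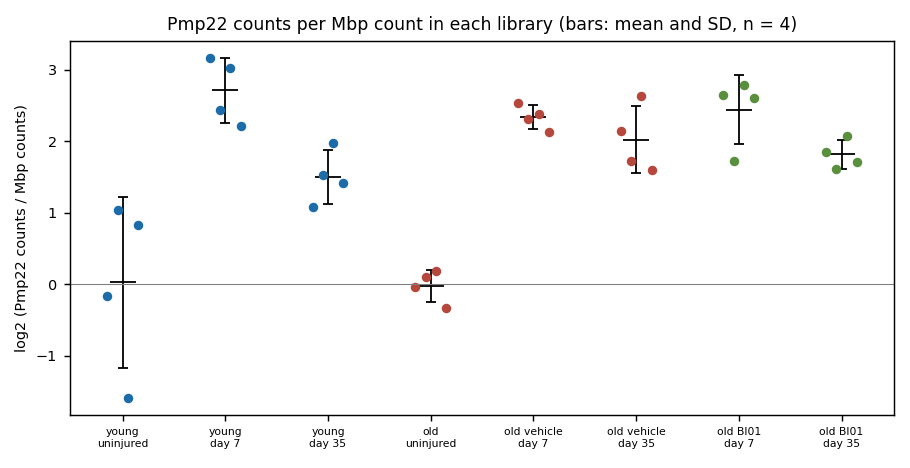
Log2 ratio of Pmp22 to Mbp counts (y axis, 0 means equal counts) in each library of the 8 groups (x axis), with bars for mean and SD (n = 4). All injured libraries lie above all uninjured libraries.

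The identity genes were read from few counts. Sox10 had 0, 0, 5 and 5 counts in the young uninjured libraries, 0, 1, 0 and 0 at day 7, and 5, 6, 3 and 5 at day 35. Old vehicle libraries held 16, 4, 5 and 5 counts uninjured, 19, 8, 1 and 3 at day 7, and 11, 9, 5 and 10 at day 35. In young muscle Sox10 was lower at day 7 than uninjured (adjusted p = 0.00970), with 1 count against 10 and a ratio of shares of 19.3 (exact 95% interval 2.74 to 836). The uninjured libraries at 0 overlapped the day 7 ones. The fitted value went from -3.71 to -5.13 without day 7 library 5 and to -3.11 without uninjured library 4, and the call held in 12 of the 14 alternatives that tested the gene, being lost with limma voom (0.0766) and in a fit of those groups alone (0.0764). It was higher at day 35 than at day 7 (adjusted p = 0.00342) by a ratio of 27.3 (interval 4.34 to 1134), with no overlap and in all 14 alternatives. Its fitted value of 4.15 was 5.57 without day 7 library 5. Intervals of count ratios cover counting error only.

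At day 7 Sox10 had 1 count in the 4 young libraries and 31 in the 4 old vehicle libraries, a ratio of shares of 26.5 (interval 4.41 to 1079) that was not called (adjusted p = 0.0559). Every old library lay above every young one, the closest being old library 9 at 0.0439 CPM and young library 5 at 0.0424 CPM. Without old library 9 (adjusted p = 0.0215) or 10 (0.0412), or young library 5 (0.0464), it was called. The difference between the ages in the day 7 response was 2.93 on the log2 scale (SE 1.43, adjusted p = 0.208). In old vehicle muscle itself day 7 did not differ detectably from uninjured muscle at this depth (-0.78, 95% interval -2.48 to 0.91, adjusted p = 0.418).

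S100b had 1 count in all young uninjured libraries together, 19 at day 7 and 16 at day 35. In old vehicle muscle its libraries read 0.229, 0.0796, 0 and 0.407 CPM uninjured and 0.548, 0.986, 1.18 and 0.564 CPM at day 7, without overlap. S100b rose 4.31-fold there (log2 fold change 2.11, SE 0.93, adjusted p = 0.0466). The call held in 9 of 15 alternatives. It was lost without old day 7 libraries 8 (adjusted p = 0.0767) or 9 (0.0976) and without old uninjured libraries 6 (0.0678), 7 (0.119) or 8 (0.117), and the value was 2.94 without uninjured library 9. The young ratio at day 7 was 9.86 (interval 1.57 to 410), not called (adjusted p = 0.0715) except by DESeq2 (0.0437), with library size alone (0.0149) and without young day 7 library 7 (0.0424) or young uninjured library 4 (0.0348). Old vehicle libraries at day 7 all lay above the young ones (1.97, adjusted p = 0.229).

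Cdh19 was not called in any of the 12 comparisons of groups. Its means ran from 0.316 ± 0.254 CPM in young day 35 to 1.02 ± 0.448 CPM in BI01 day 35 muscle, and its spread within groups was wide. Young day 7 libraries held 23, 26, 28 and 1 counts, and old vehicle day 7 libraries 31, 8, 18 and 0. At this depth no group difference in Cdh19 was detectable beyond the spread between libraries, except that the young day 7 difference from uninjured (1.33, adjusted p = 0.239) was called with library size alone (0.0465).

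**Figure D4:**
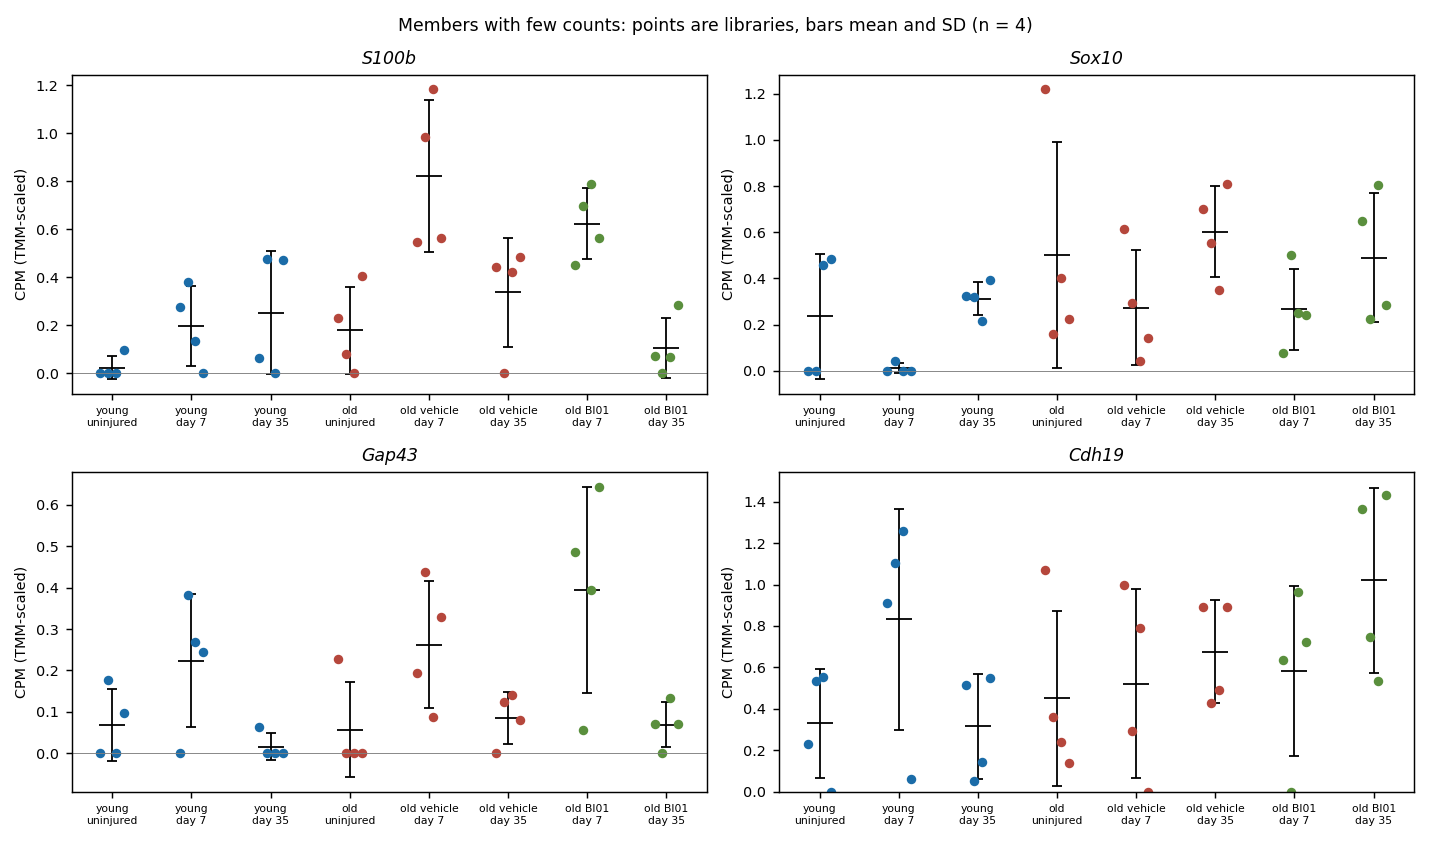
Expression in CPM (y axis, linear) of S100b, Sox10, Gap43 and Cdh19 in the 8 groups (x axis), with points for libraries and bars for mean and SD (n = 4). Bars may reach below 0 because the SD exceeds the mean. Sox10 is at or near 0 in all young day 7 libraries.

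Ngfr and Gap43, the genes of immature and injured Schwann cells, gave 1 call between them. Ngfr read 5.57, 3.03, 5.98 and 9.07 CPM in young uninjured muscle, 7.31, 3.90, 5.43 and 1.96 at day 7 and 2.39, 2.18, 3.32 and 3.76 at day 35. Old vehicle libraries held 2.75, 2.11, 2.88 and 4.07 CPM uninjured, 2.02 to 5.22 CPM at day 7 and 1.55 to 4.94 CPM at day 35. The lowest young uninjured library overlapped both the old uninjured and the young day 35 libraries. Ngfr was called in none of the 12 comparisons. It differed from uninjured muscle at day 7 by -0.34 in young (adjusted p = 0.484) and 0.32 in old muscle (adjusted p = 0.500). At day 35 the young difference was -1.02 (SE 0.42, adjusted p = 0.0941), which DESeq2 (0.0440) and the fit without young uninjured library 2 (0.0437) called. Old against young uninjured muscle gave -0.997 (SE 0.42, adjusted p = 0.110). With library size alone Ngfr was called higher at old day 7 than uninjured (1.33, adjusted p = 0.00604). That scaling also called it lower at day 35 than at day 7 in young (-1.40, 0.00568), old vehicle (-1.18, 0.0140) and BI01 muscle (-1.06, 0.0273).

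Gap43 had 0, 2, 0 and 1 counts in young uninjured, 0, 9, 6 and 4 in young day 7, and 1, 0, 0 and 0 in young day 35 libraries. From day 7 to day 35 in young muscle it was lower by a ratio of shares of 13.2 (interval 2.10 to 550, adjusted p = 0.0381). This call held in 5 of the 14 alternatives that tested it. It was lost without young day 35 library 2 (adjusted p = 0.0989), 3 (0.0850) or 4 (0.0831), and without young day 7 library 5 (0.0937), 6 (0.0608) or 7 (0.0509). The fitted value went from -3.31 to -5.11 without young day 35 library 1, the only one with a count. In old vehicle muscle Gap43 had 3, 0, 0 and 0 counts uninjured and 6, 12, 2 and 7 at day 7, a ratio of 6.399 (interval 1.97 to 33.0) that was not called (adjusted p = 0.0752). It was called by limma voom (0.0361), with library size alone (0.0107) and without uninjured library 6, which held all 3 counts (0.00560).

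Other Schwann cell genes were read from lists and measured beside the members. Mag, the adhesion protein of the inner myelin membrane, was called only between BI01 day 35 and day 7 (-2.78, adjusted p = 0.0482), in 7 of 15 alternatives. Drp2, a partner of periaxin at the Schwann cell surface, rose by 3.76 in young (adjusted p = 2.70e-10) and by 2.83 in old muscle at day 7 (adjusted p = 6.47e-09). Cnp, a cytoplasmic enzyme of myelin that other cells also make, rose by 1.18 (adjusted p = 9.19e-07) and 0.82 (adjusted p = 0.000114). Of the 20 further myelin sheath genes 13 were tested. At day 7, 4 rose and 2 fell in young muscle, and 5 rose and 2 fell in old muscle. Over all genes tested, 33.3% were called higher and 27.5% lower in young muscle at day 7, and 34.4% and 29.8% in old muscle. The day 7 counts of this list and of those below have to be read beside these shares. At day 35 against uninjured muscle edgeR called 0 of the 13 at either age. The median log2 fold changes at day 7 were 1.46 and 0.82. Mal, a proteolipid of myelin and other membranes, fell at both ages (-2.99, adjusted p = 0.0284, and -4.59, adjusted p = 0.000709).

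**Figure D5:**
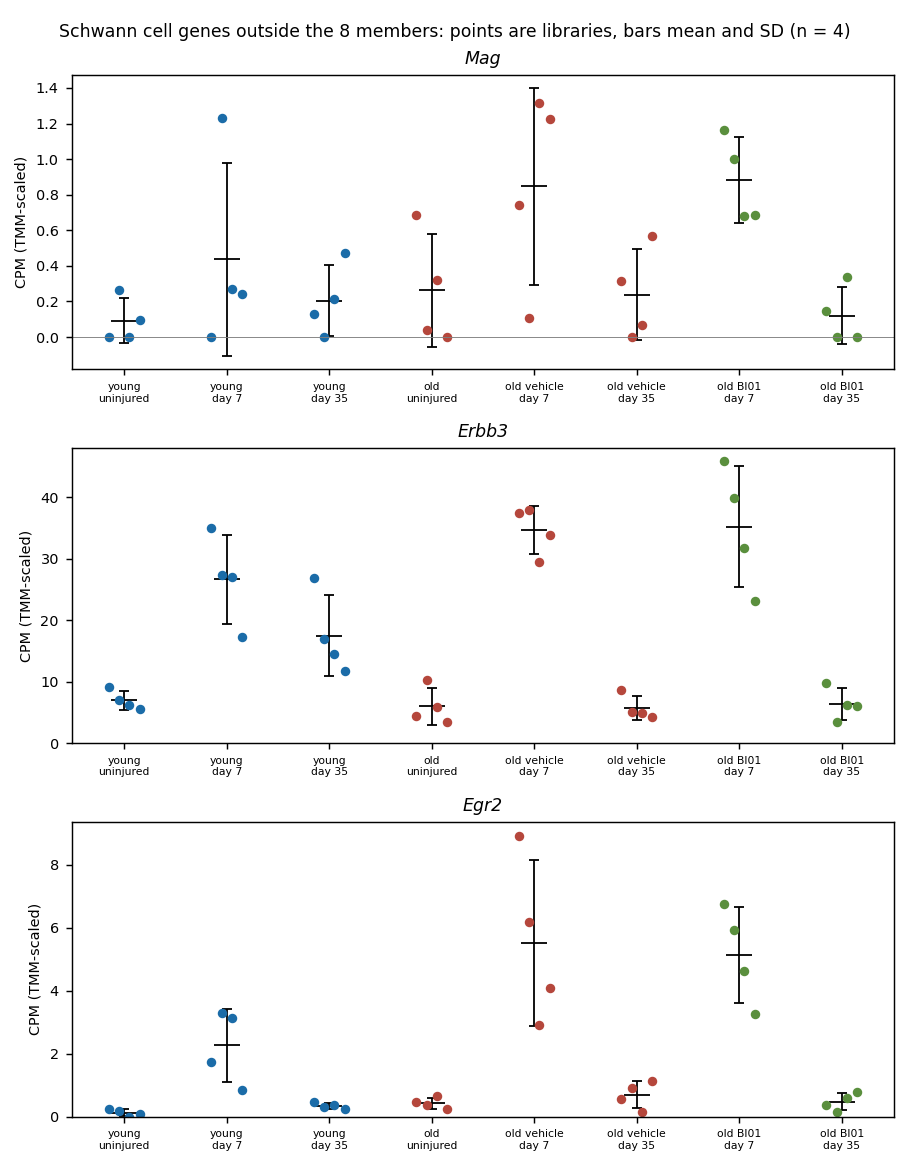
Expression in CPM (y axis, linear) of Mag, Erbb3 and Egr2 in the 8 groups (x axis), with points for libraries and bars for mean and SD (n = 4). Erbb3 and Egr2 are higher in every day 7 library than in any uninjured library of the same age, and Mag is low in all groups.

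Among regulators, Egr2 rose at day 7 by 4.05 in young (SE 0.65, adjusted p = 3.12e-06) and by 3.76 in old muscle (SE 0.53, adjusted p = 3.95e-07). Macrophages and other cells also use this transcription factor gene. The neuregulin receptor gene Erbb3 read 9.05, 7.03, 6.16 and 5.60 CPM in young uninjured and 35.0, 27.3, 27.0 and 17.2 CPM in young day 7 libraries, and rose by 1.93 (SE 0.32, adjusted p = 5.46e-06). It rose by 2.53 in old muscle (SE 0.32, adjusted p = 5.96e-08). At day 35 Erbb3 was still higher than uninjured in young muscle (1.33, adjusted p = 0.00469) and stood at -0.06 in old muscle (adjusted p = 0.958). Old muscle lay below young muscle at day 35 by 1.61 (SE 0.32, adjusted p = 0.00269, all 15 alternatives), while the difference between the 2 responses was not called (-1.39, adjusted p = 0.347). Of 18 regulators 16 were tested, and at day 7 edgeR called 8 higher and 1 lower in young and 9 higher and 3 lower in old muscle. Among all genes tested 60.8% were called in young and 64.2% in old muscle. Erbb2, the partner of ERBB3, rose (2.38, adjusted p = 3.45e-08, and 2.39, adjusted p = 1.39e-08), and Foxd3, a neural crest factor, fell (-3.75, adjusted p = 5.74e-05, and -2.62, adjusted p = 0.000821).

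Of 15 genes of the repair state 10 were tested, and at day 7 the counts were 5 higher and 2 lower at each age. Jun, whose protein directs the repair state, went from 363 ± 141 CPM (SD, n = 4) to 85.0 ± 18.3 CPM in young and from 130 ± 37.8 to 75.5 ± 11.4 CPM in old muscle. It fell at both ages (-2.09, adjusted p = 3.61e-09, and -0.78, adjusted p = 0.00266). The responses differed between the ages by 1.31 (SE 0.31, adjusted p = 0.0110, called in 22 of 23 alternatives). In young muscle Runx2 (3.19, adjusted p = 3.95e-07) and Tnc (8.16, adjusted p = 8.38e-07) rose. They rose in old muscle too, by 2.82 to 4.19 and 7.56 to 9.54 over the 15 alternatives, all of which called them. Runx2 and Tnc are also genes of bone-forming or connective tissue cells. Of 10 genes of non-myelinating Schwann cells 6 were tested and 4 rose at each age, among them Scn7a (2.26, adjusted p = 3.22e-08, in young muscle), Matn2 (4.69, adjusted p = 4.18e-12) and Ncam1 (4.88, adjusted p = 1.45e-09), which regenerating fibres also make. The members and these lists thus contained genes with rises and genes with falls in the same libraries.

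Genes of other cells moved at the same time. In young muscle 8 macrophage markers summed to 16.1 to 61.3 CPM uninjured and 326 to 649 CPM at day 7, and all 8 rose. In old muscle the sums were 9.18 to 70.7 and 602 to 1098 CPM, and all 8 rose. Fibroblast markers summed to 263 to 497 CPM uninjured and 7229 to 11693 CPM at day 7 in young muscle (7 of 10 rose), and to 196 to 540 and 9512 to 14938 CPM in old muscle (8 of 10 rose). They were still at 571 to 962 CPM in young and 952 to 1283 CPM in old vehicle muscle at day 35, when 5 and 6 of the 10 were called higher than uninjured. Muscle fibre markers summed to 65717 to 138643 CPM in young and 10011 to 62334 CPM in old muscle at day 7. Their part in the changes of Pmp22, Prx, S100b, Egr2 and the lists was not tested. Perineurial and endoneurial markers, of the sheath around nerve bundles, went from 23.1 to 46.2 up to 64.4 to 73.4 CPM in young and from 22.6 to 29.8 up to 71.9 to 95.04 CPM in old muscle, with 3 of the 8 tested called higher at each age. Of the 12 axon and neuron markers only 5 passed the low-count filter, and 6 had no count in young uninjured muscle. Gjb1 and Pmp2, a pair of myelin genes of Schwann cells, had 0 counts in all 3 day 7 groups, and a count of 0 allows up to 3.

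In uninjured muscle old and young mice differed in 13.4% of genes tested (2302), and in none of the 8 members by edgeR, with 1 member (Ngfr) at an unadjusted p under 0.05. DESeq2 and limma voom also called 0 members. The old-minus-young differences were 0.28 for Pmp22 (95% interval -0.30 to 0.87, adjusted p = 0.564), 0.42 for Mbp (-0.14 to 0.98, adjusted p = 0.325) and -0.14 for Prx (-0.90 to 0.63, adjusted p = 0.857). S100b had 14 counts in old and 1 in young muscle, a ratio of 8.73 (interval 1.33 to 369, adjusted p = 0.205). Sox10 and Cdh19 had 30 and 29 counts in old and 10 and 15 in young muscle, with wide intervals and no call. Among the listed genes Drp2 was higher in old uninjured muscle (1.28, adjusted p = 0.0158, 12 of 15 alternatives) and Jun was lower (-1.48, adjusted p = 9.44e-05).

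At day 7 after injury 2.43% of genes differed between the ages and edgeR called 0 members, with 3 at an unadjusted p under 0.05 (Mbp, S100b and Sox10). At day 35 the background was 3.51%, again with 0 members called and 1 (Prx) at an unadjusted p under 0.05. DESeq2 and limma voom called 0 members at both times. Mbp at day 7 was higher in all 4 old vehicle libraries (6.54 to 9.87 CPM) than in the young ones (4.15 to 6.49 CPM), but the difference of 0.67 was not called (95% interval 0.11 to 1.23, adjusted p = 0.172). Prx at day 35 stood 0.92 lower in old muscle (-0.92, 95% interval -1.70 to -0.15, adjusted p = 0.201). For the difference of the day 7 responses between ages 7.7% of genes were called and 0 members, with 1 member (Sox10) at an unadjusted p under 0.05. For the day 35 responses 0% of genes were called by edgeR (1690 at an unadjusted p under 0.05, 31 by DESeq2 and 1 by limma voom), and 0 members at either level or by either other tool.

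BI01 was compared with vehicle in old mice at both times, to ask whether the compound altered the response to injury. BI01 libraries held 56.7, 43.4, 44.6 and 39.6 CPM of Pmp22 at day 7 and 18.2, 6.87, 17.6 and 17.6 CPM at day 35, and 9.07, 13.1, 6.47 and 6.51 CPM of Mbp at day 7 and 5.03, 2.24, 4.15 and 5.38 CPM at day 35. These values overlapped those of old vehicle muscle at both times. At day 7, 0% of genes were called by edgeR, with 1126 at an unadjusted p under 0.05, 1 called by DESeq2 and 0 by limma voom. At day 35, 0% were called, with 530 at an unadjusted p under 0.05, 12 called by DESeq2 and 0 by limma voom. None of the 8 members was called by any of the 3 tools at either time, and 0 had an unadjusted p under 0.05.

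The intervals give the size of difference that these libraries could leave undetected. For Pmp22 the BI01-minus-vehicle difference was 0.18 at day 7 (95% interval -0.36 to 0.72, adjusted p = 0.918) and -0.13 at day 35 (-0.70 to 0.43, adjusted p = 1). For Mbp it was 0.16 at day 7 (-0.39 to 0.70, adjusted p = 0.928) and 0.01 at day 35 (-0.57 to 0.60, adjusted p = 1). Prx at day 35 read 2.45, 1.34, 2.14 and 3.66 CPM with BI01, a difference of 0.77 from vehicle (SE 0.38, adjusted p = 1). S100b at day 35 had 6 counts with BI01 and 19 with vehicle (-1.59, 95% interval -3.73 to 0.55, adjusted p = 1). For Sox10, Gap43 and Cdh19 the intervals spanned more than 3 log2 units, so that only very large differences could have been seen. The change of the BI01 effect between the times was called for 0% of genes (825 at an unadjusted p under 0.05, 2 by DESeq2 and 0 by limma voom) and for 0 members at either level.

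Between day 7 and day 35 with BI01, Pmp22 fell by 1.61 on the log2 scale (SE 0.28, adjusted p = 1.29e-05) and Mbp by 1.07 (SE 0.28, adjusted p = 0.00174), each without overlap and in all 15 alternatives. S100b fell by 2.48 (SE 1.01, adjusted p = 0.0367), from 73 to 6 counts. Its call held in 9 of 15 alternatives and was lost without day 35 libraries 6 (adjusted p = 0.0819), 7 (0.101) or 8 (0.0852) or day 7 libraries 2 (0.0558) or 3 (0.0648). Without day 35 library 9 the value was -3.56.

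The members were also compared library by library after each group's mean was taken out, over 32 libraries on the log2 CPM scale (prior count 2). Of the 28 pairs of members 21 correlated positively and 7 negatively, with Pearson r from -0.31 to 0.42 and a median of 0.17. No pair passed a permutation test adjusted over the 28 pairs, and 1 had an unadjusted p under 0.05. That pair was Mbp and Sox10 (r = 0.42, Spearman rho = 0.43, permutation p = 0.0303, adjusted 0.629), with r = 0.37 without the 2 libraries farthest from the median. The median counts per library of Gap43 (1.5), S100b (5), Sox10 (5) and Cdh19 (8) were low, so these correlations do not show whether the members vary together. The genes most like each member were chosen among 12154 protein-coding genes whose mean reached 1 CPM. For Pmp22 they were Rcn3 (r = 0.89), Selenon (0.88) and Snx20 (0.85). For Mbp they were Plxnb3 (0.71), Pgrmc1 (0.69) and Kcnn4 (0.68), and for Prx Fgfr3 (0.71), Shc4 (0.63) and Tlcd1 (0.61). Nearest to Ngfr was Thnsl2 (0.75), to Cdh19 Slc25a45 (0.79), to Gap43 Sirt5 (0.70), to Sox10 Zfp518b (0.67) and to S100b Ddx60 (0.65). Each is the highest of many correlations over the same libraries and is given as a description. No member was among the 3 genes most like another member.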

How the data were processed

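The deposited table holds whole-number counts per gene for 32 libraries. Per the submitters' processing notes, reads were aligned with HISAT2 to mm10. Versions, counter, annotation release and strand setting were not given in the sources used here, so reads of overlapping or antisense genes may be shared. Gene lengths were taken as the authors deposited them. RNA was isolated with a Qiagen miRNeasy kit and sequenced at Novogene, per the labels' protocols. Columns could be matched to groups, not to single samples, and no 2 columns were identical.

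Counts were scaled by TMM with edgeR 4.0.16, run in R 4.3.3, after filterByExpr had kept 17121 genes. A robust quasi-likelihood model with 1 mean per group was fitted to all 32 libraries. The 12 comparisons of 2 groups and 3 differences of differences were contrasts of those means, with Benjamini-Hochberg adjustment over all genes tested, and a call was an adjusted p under 0.05. All adjusted p-values of genes are edgeR's unless another tool is named. Expression is CPM of the TMM-scaled library, and per kilobase it is divided by the deposited gene length. For groups summing to 1 to 3 counts, ratios of shares of the TMM-scaled library totals are given with exact 95% intervals. Count ratios within libraries were tested by exact two-sided permutation, and correlations with 1e+05 permutations (scipy 1.17.1, Python 3.11.15).

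The alternatives were DESeq2 size factors for scaling (RLE), library size alone, no low-count filter, a filter of 1 CPM in 4 libraries, limma voom (limma 3.58.1), DESeq2 1.42.0, a fit of only the groups compared, and leaving out each library in turn. Fits with a block on the column number, the count ratios and the alternatives for genes outside the 8 were added after the data were seen. On simulated counts for 17121 genes in the comparison of old with young uninjured muscle, 42% of 100 genes changed by a log2 of 1 and 75% of 100 genes changed by a log2 of 2 were recovered. The members and the gene lists were chosen with earlier results of these data known. All 8 members are named. Of the other lists at most 4 called genes per list and comparison qualified for naming, those with the smallest p whose higher group averaged 1 CPM or more. Mag, Egr2 and Erbb3 were named in any case. Some genes that qualified are not reported here. Mal, Foxd3, Gjb1 and Pmp2 fall outside this rule and were chosen after their values were seen.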

Additional observations from a re-analysis of the deposited data

Results flagged for a closer look

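In 3 genes outside the 8 members the day 7 response differed between the ages by edgeR's test of the difference, with old minus young values of 1.31 for Jun (adjusted p = 0.0110), -0.78 for Yap1 (adjusted p = 0.00296) and 1.29 for Scn7a (adjusted p = 0.0357). Jun was at 363 ± 141 CPM in young and 130 ± 37.8 CPM in old uninjured muscle, and at 85.0 ± 18.3 and 75.5 ± 11.4 CPM at day 7. Yap1 was at 74.6 ± 4.68 and 101 ± 2.48 CPM uninjured, and at 76.9 ± 9.39 and 60.7 ± 6.60 CPM at day 7. Scn7a was at 4.46 ± 1.00 and 3.11 ± 0.833 CPM uninjured, and at 21.4 ± 6.13 and 36.1 ± 8.36 CPM at day 7. A fit of only the groups compared called none of the 3 (adjusted p = 0.0771, 0.0541 and 0.0769). Scn7a kept its call in 12 of 23 alternatives. It was lost with limma voom (0.0821) and without young uninjured library 1 (0.0582) or 3 (0.104), old uninjured library 6 (0.0612), 7 (0.0560) or 9 (0.0791), young day 7 library 6 (0.0598) or 7 (0.0651), or old day 7 library 8 (0.0754) or 10 (0.0555).

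In 8 of the 80 sets of 4 libraries checked, 1 library stood apart from the other 3 by Dixon's criterion. Chance meets it in about 1 in 20 sets of normally distributed values. A set with 3 libraries at 0 and 1 above 0 always meets it, so the 8 sets cannot be set against that rate. Pmp22 in young day 35 muscle was 14.8 CPM in library 4, where the next value was 11.2. Pmp22 in BI01 day 35 muscle was 6.87 CPM in library 7, where the next value was 17.6, and that library was also the lowest of its group for Mbp. The ratio of Pmp22 to Mbp counts in BI01 day 7 library 2 was 3.31, where the next was 6.09. That library had the highest Mbp of its group, with 18 Sox10 counts, 2 Gap43 counts and 0 Cdh19 counts.

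The remaining 5 sets rest on few counts. S100b in young uninjured muscle was 0.0965 CPM in library 4, and 0 in the other 3. S100b in old vehicle day 35 muscle was 0 in library 7, where the next value was 0.422 CPM. Sox10 in young day 7 muscle was 0.0424 CPM in library 5, and 0 in the other 3. Gap43 in young day 35 muscle was 0.0646 CPM in library 1 and 0 in the other 3, and in old uninjured muscle 0.229 CPM in library 6 and 0 in the other 3.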

How the results depend on the processing

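Of the members' called log2 fold changes under the alternatives, 188 kept direction and call and 36 kept direction only. None reversed. Among the other named genes 1592 kept direction and call, 61 lost the call and 1 reversed: Yap1 between BI01 day 35 and day 7 went to -0.0773 with library size alone. The cause was not tested. Values of CPM under about 1, as for S100b, Sox10, Gap43 and Cdh19, are limited by counts.

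The number of members called moved as follows. With library size alone it was 5 at young day 7, 5 at old day 7, 0 at young day 35, 1 for age at day 7 and 6 for day 35 against day 7 in each of young, old vehicle and BI01 muscle. With no low-count filter it was 1 at old day 7 and 0 at young day 35, and with the filter of 1 CPM it was 1 at young day 7 and 1 for young day 35 against day 7. Limma voom gave 1 at young day 7 and 0 at young day 35, and DESeq2 gave 5 and 2. A fit of only the groups compared gave 1 at young day 7, 0 at young day 35, 2 at old day 35 and 1 for age at day 35. With 1 library left out the counts were 2 to 4 at young day 7, 1 to 2 at old day 7, 0 to 2 at young day 35 and 0 to 1 for age at day 7. The share of all genes called with library size alone is not given here for comparisons between days or with uninjured muscle.

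Over all genes, age in uninjured muscle gave 1524 calls with no filter, 1203 with only the groups compared and 1041 to 2911 with 1 library left out. Age at day 7 gave 712 with library size alone, 171 with no filter, 1263 with limma voom, 862 with DESeq2, 0 with only the groups compared and 7 to 1011 with 1 library left out. Age at day 35 gave 919 with DESeq2, 1922 with only the groups compared and 335 to 452 with 1 library left out. Day 35 against uninjured muscle gave 1342 to 3140 in young and 570 to 889 in old muscle with 1 library left out, and 2550 in old muscle with only the groups compared. The difference of day 7 responses gave 817 with no filter, 2030 with DESeq2, 173 with only the groups compared and 580 to 2166 with 1 library left out. The difference of day 35 responses gave 2 with library size alone, 1 with no filter, 1 with limma voom, 31 with DESeq2, 1 with only the groups compared and 0 to 40 with 1 library left out. BI01 gave 1 call at day 7 and 12 at day 35 with DESeq2, 0 to 54 at day 7 with 1 library left out, and its change over time gave 2 with DESeq2.

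Uninjured and day 35 columns share numbers. In young muscle, libraries with the same number correlated in their deviations at 0.161, -0.032, 0.153 and 0.157. In old muscle these values were 0.009, 0.032, 0.073 and 0.109. Libraries with different numbers ranged from -0.159 to 0.132 in young and from -0.139 to 0.121 in old muscle. The young values 0.161, 0.153 and 0.157 thus lay above every different-number value, and no old same-number value did. The labels do not tie the numbers to animals, so they were not taken as pairs, but pairing is not excluded. With the replicate block, old day 35 against uninjured gave 2 members (Pmp22 was called, adjusted p = 0.00254) and 2605 genes, and the difference of day 35 responses gave 7 genes. In young muscle Mbp lost its call (adjusted p = 0.0517) and Ngfr was called (0.0215).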
